A study of Mus musculus with 6 samples.

Results

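The peroxiredoxins, catalase and superoxide dismutases were examined in primary mouse keratinocytes, the epithelial cells of the epidermis, with and without the glutathione peroxidase Gpx4. The genes were proposed as a family of 10: Prdx1 to Prdx6, Cat, Sod1, Sod2 and Sod3. A gene was followed where an array probe set named it and no other gene, which gave 7 of the 10 genes and 20 of the 45037 probe sets tested. These were Prdx2, Prdx3, Prdx4, Cat, Sod1, Sod2 and Sod3. The 5 probe sets of Prdx1 also name a second gene, Gm21399, and were not used. Prdx5 and Prdx6 were not analysed here.

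The arrays held RNA of Gpx4 KO keratinocytes, in which a cre recombinase under the Keratin-14 promoter had removed Gpx4, and of control keratinocytes from the same litters. Each of the 3 litters, A, B and C, gave 1 Gpx4 KO pool and 1 control pool, so there were 3 arrays per genotype. Both genotypes were of mixed C57BL6/FVB background, came from newborn mice and were cultured with 100 nM sodium selenite, the selenium source for Gpx4 and other selenoproteins. The Keratin-14 promoter is active in basal keratinocytes, and the labels do not give the number of animals per pool, the genotype of the controls beyond that word, or the part of Gpx4 that was deleted.

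Superoxide dismutases convert superoxide to oxygen and hydrogen peroxide: Sod1 with copper and zinc in the cytosol, Sod2 with manganese in mitochondria, and Sod3 outside the cell. Catalase, encoded by Cat, breaks down hydrogen peroxide in peroxisomes. The peroxiredoxins followed here reduce hydrogen peroxide and organic peroxides with a reactive cysteine that thioredoxin then restores. Prdx2 acts in the cytosol, Prdx3 in mitochondria and Prdx4 in the endoplasmic reticulum. Gpx4 differs from the members followed here in reducing lipid hydroperoxides within membranes, using selenocysteine and glutathione.

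Levels are array intensities after quantile normalization, which gives all arrays the same distribution of values, and no probe set's level is set against that of another. A log2 change is Gpx4 KO minus control, averaged over the 3 litters. It was taken on log2(intensity + 16), where the added 16 draws the change of a dim probe set toward 0. Errors are SD over 3 arrays for levels and SE for log2 changes, intervals cover 95%, and a probe set passed at an adjusted p under 0.05 in limma with litter as a block. Precision is limited by having 3 arrays per genotype, and a lower level in a pool can stem from fewer cells of a type or less RNA per cell, which cannot be told apart.

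None of the 7 genes passed the test, on any of their 20 probe sets, against 0.42% of all probe sets tested (189), with 0.158% called higher and 0.262% called lower in Gpx4 KO. Over all probe sets that number was 3 when litter A was left out, 0 when B was (3700 at an unadjusted p under 0.05 in limma) and 2773 when C was, and none of the 7 genes passed on its brightest probe set in any of these. The smallest adjusted p among the 20 was 0.169 by limma. At an unadjusted p under 0.05 there were 5 of the 20, 2 higher and 3 lower in Gpx4 KO, against 14.6% of all probe sets (7.06% higher and 7.58% lower) and 22.2% of those brighter than the median. Taken on their brightest probe sets, 2 of the 7 genes had such a p, Prdx3 higher and Prdx2 lower, against 18.1% of all genes. The log2 changes of the 7 genes, each on its brightest probe set, lay between -0.23 for Prdx2 and 0.32 for Prdx3. Their median was -0.084, against 0.00039 over all 18193 genes. For all 7 genes the interval of that log2 change lay between -1 and 1, so a change of 2-fold or more was outside each of these single intervals. For Sod3 this says little, because it was too dim to measure. Intervals between -1 and 1 were also found for 17193 of all 18193 genes, so they are not particular to the family. A p that misses the threshold does not show that levels were alike, and the intervals below give the sizes that the arrays leave possible.

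**Figure D1:**
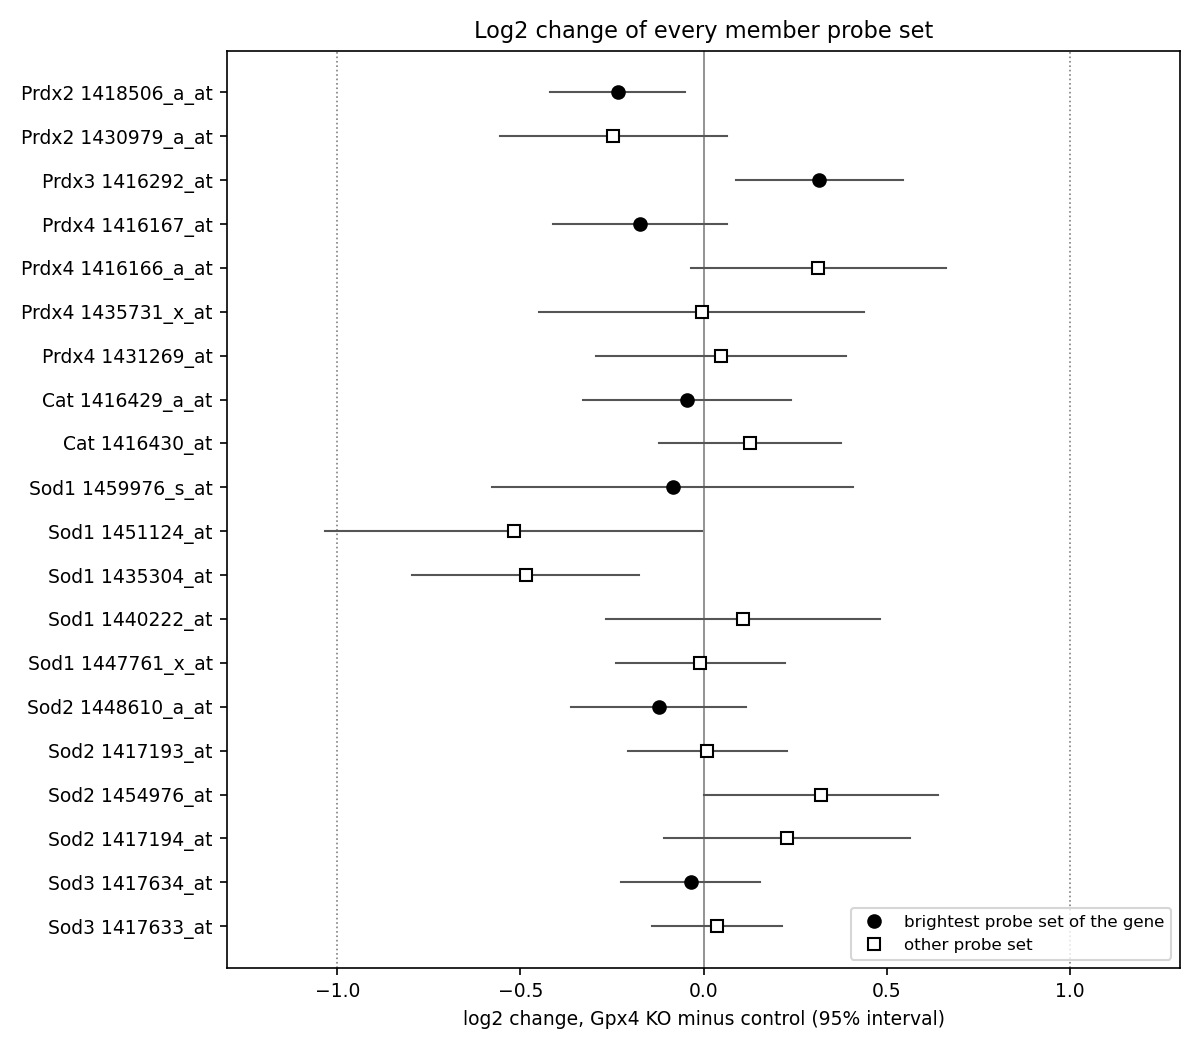
Log2 change (Gpx4 KO minus control, horizontal axis) of the 20 member probe sets, named at left by gene and probe set; filled circles are the brightest probe set of each gene, open squares the others, bars the 95% intervals, and dotted lines mark 2-fold lower and higher. The points lie between -0.52 and 0.32, and 19 of the 20 intervals stay between the dotted lines, as do those of 43113 of all 45037 probe sets.

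The deleted gene was checked first. Gpx4 had intensities of 212, 260 and 216 in Gpx4 KO pools of litters A, B and C, against 497, 551 and 536 in control pools, on the brighter of its probe sets. It fell with a log2 change of -1.15 ± 0.091 (limma adjusted p = 0.0206), with each Gpx4 KO pool below every control pool. The call was lost when litter A was left out (-1.14, limma adjusted p = 0.153) and when litter B was (-1.21, limma adjusted p = 0.278). The labels do not say whether its probes lie in the deleted stretch. The mean intensity of an array before normalization, trimmed of 2% at each end, was 73.4 to 92 in Gpx4 KO and 72.8 to 114 in controls, with the highest value in the control of litter C. The ratio of 3′ to 5′ signal of the actin control probe sets, a sign of RNA quality, was 1.22 to 1.26 in Gpx4 KO and 1.18 to 1.29 in controls. That of Gapdh was 0.700, 0.740 and 0.729 in Gpx4 KO pools of litters A, B and C, against 0.675, 0.691 and 0.716 in controls, so it was higher in Gpx4 KO within each litter. All 10 keratinocyte markers were brighter than the median probe set, with a summed level of 24990 to 26000 in Gpx4 KO and 25449 to 27426 in controls. The 4 brightest, Krt5, Krt14, Dsp and Cdh1, made up most of that sum. Krt10, a keratin of differentiating keratinocytes, fell (log2 change -1.42, limma adjusted p = 0.00922), Trp63 and Epcam were lower and Cdh1 higher in every Gpx4 KO pool without passing, and Krt1 had a log2 change of -1.21 (limma adjusted p = 0.0836). Summed melanocyte markers (8 of 8 measured) were 6397 to 7000 in Gpx4 KO and 4597 to 4767 in controls, with 7 of the 8 higher in every Gpx4 KO pool, 2 of them past the threshold. Summed fibroblast markers (10 of 10) were 1369 to 1697 in Gpx4 KO and 467 to 1252 in controls, but Vim made up most of the sum in Gpx4 KO pools. Summed without Vim, the other 9 gave 428 (A), 533 (B) and 659 (C) in Gpx4 KO pools, against 241 (A), 281 (B) and 637 (C) in control pools, so the groups overlapped. Of the 10, 2 (Vim and Pdgfra) were higher in every Gpx4 KO pool, 1 (Fbln1) was lower in every one, and 0 passed. Of 6 smooth muscle markers, 3 were higher and 1 lower in every Gpx4 KO pool and 1 passed, Actg2 (log2 change 1.5, limma adjusted p = 0.0429), while the summed level was 2893 to 3102 in Gpx4 KO and 2298 to 3373 in controls. Of 10 leukocyte, 4 red cell and 7 endothelial markers measured, 6, 0 and 0 were brighter than the median. All 4 sex-linked genes measured passed: Xist, which is transcribed from the inactive X chromosome, was 1214 to 1260 in Gpx4 KO and 389 to 536 in controls, and the Y-linked Eif2s3y was 0.667 to 4.62 in Gpx4 KO and 155 to 185 in controls, with Kdm5d and Uty also near 0 in every Gpx4 KO pool. The make-up of the pools by sex therefore went with genotype in all 3 litters, and it cannot be told apart from genotype in any comparison below. The part of the other cell types and of RNA quality in the values below was not tested.

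The sequences before the transcription start are shown for Prdx2, Prdx3 and Sod1, the 3 members with the smallest unadjusted p on any of their probe sets (for Sod1, a dimmer one), so that the letters around their starts can be read beside the values that follow. They run from 250 bases before to 50 bases after the start in RefSeq on GRCm38.p6, from 5′ to 3′ on the strand of the gene, at chr8:84969372-84969671 (plus strand), chr19:60874489-60874788 (minus strand) and chr16:90220512-90220811 (plus strand). Capitals mark matches to the motifs searched on both strands.
Prdx2: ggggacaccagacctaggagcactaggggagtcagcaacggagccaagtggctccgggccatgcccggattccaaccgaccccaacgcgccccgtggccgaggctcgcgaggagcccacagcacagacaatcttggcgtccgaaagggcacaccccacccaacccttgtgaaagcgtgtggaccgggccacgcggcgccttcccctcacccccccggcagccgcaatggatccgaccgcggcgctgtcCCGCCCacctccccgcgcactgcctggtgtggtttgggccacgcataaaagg
Prdx3: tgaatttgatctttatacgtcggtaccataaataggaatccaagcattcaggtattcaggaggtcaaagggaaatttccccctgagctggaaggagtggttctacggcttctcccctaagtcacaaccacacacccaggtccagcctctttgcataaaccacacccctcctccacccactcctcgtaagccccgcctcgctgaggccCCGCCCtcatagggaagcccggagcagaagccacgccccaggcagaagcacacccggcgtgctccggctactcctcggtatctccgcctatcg
Sod1: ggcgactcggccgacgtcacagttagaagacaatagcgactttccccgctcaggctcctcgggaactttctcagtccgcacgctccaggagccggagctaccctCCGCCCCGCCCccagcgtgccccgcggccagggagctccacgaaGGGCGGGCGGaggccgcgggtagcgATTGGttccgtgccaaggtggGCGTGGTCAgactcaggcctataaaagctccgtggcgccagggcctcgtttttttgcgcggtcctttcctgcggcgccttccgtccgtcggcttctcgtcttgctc
The motifs were the antioxidant response element TGACNNNGC, through which the factor NRF2 acts, the AP-1 site TGANTCA, the GC box GGGCGG, the forkhead site GTAAACA and the CCAAT box, whose letters are its name. An AP-1 site can lie within an antioxidant response element, and neighbouring GC boxes can overlap, as they do in Sod1. Windows were found for 8 of the 10 genes and for 6 of the 7 measured ones. Of those 6, Sod1 alone held the antioxidant response element, on the reverse strand with its first base at -56, and 12.4% of 27025 mouse promoter windows of this length hold it. A GC box stood in 6 of the 6, against 35.6% of all windows, and a CCAAT box in 4 of the 6, against 37.8%. An AP-1 or a forkhead site was found in 0 of the 6, against 7.91% and 3.58% of all windows. A match describes letters in these windows and not a site in use.

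Among the peroxiredoxins, Prdx2 and Prdx3 differed in opposite directions, neither of them past the threshold. Prdx2, the cytosolic enzyme, had intensities of 1193, 1197 and 1237 in Gpx4 KO pools of litters A, B and C, against 1418, 1495 and 1365 in controls. Every Gpx4 KO pool lay below every control pool. The mean was 1209 ± 24.3 in Gpx4 KO and 1426 ± 65.2 in controls (SD, n = 3 each), a log2 change of -0.23 ± 0.076 with an interval of -0.42 to -0.050 (limma adjusted p = 0.24). The dimmer Prdx2 probe set gave nearly the same log2 change, -0.25 ± 0.13, with 116 ± 44.5 in Gpx4 KO and 137 ± 29.5 in controls, and there the groups overlapped. Prdx2 is abundant in red cells, whose 4 measured markers were all dimmer than the median, with a summed level of 17.5 to 24.2 in Gpx4 KO and 16.1 to 21.9 in controls.

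Prdx3, the mitochondrial peroxiredoxin, was measured by a single probe set. Its intensities were 333, 365 and 420 in Gpx4 KO pools of litters A, B and C, against 291, 288 and 305 in controls, so that every Gpx4 KO pool lay above every control pool. The mean was 373 ± 43.9 in Gpx4 KO and 295 ± 9.11 in controls. Summed melanocyte markers, given above, were also higher in every Gpx4 KO pool, and their part in the Prdx3 values was not tested. Prdx3 had the highest log2 change of the 7 genes on their brightest probe sets, 0.32 ± 0.095, with an interval of 0.088 to 0.54 (limma adjusted p = 0.21). With the intensities scaled as deposited it was 0.12 (limma adjusted p = 0.921), and there the litter C value was 351 in Gpx4 KO and 416 in control. The 3 genes with the values most like those of Prdx3 over the 6 arrays were Ccsap, Pfas, an enzyme of purine synthesis, and D830012I24Rik. Their distance to Prdx3, over log2 values centred on each gene's mean, was 0.11, 0.12 and 0.12, against a median of 0.63 over 10711 genes brighter than the median probe set. The 3 were picked for the smallest distances, so these lie below the median by selection. None of the 3 passed (log2 changes 0.33, 0.24 and 0.28; limma adjusted p = 0.429, 0.417 and 0.252).

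Prdx4, the peroxiredoxin of the endoplasmic reticulum, is the member on the X chromosome, and its probe sets did not move together. On the brightest, 1416167_at, the intensities were 162, 172 and 168 in Gpx4 KO and 190, 186 and 195 in controls of litters A, B and C. These groups did not overlap, and the log2 change was -0.17 ± 0.098 with an interval of -0.41 to 0.063 (limma adjusted p = 0.479). On the next, 1416166_a_at, the intensities were 107, 104 and 107 in Gpx4 KO and 106, 76.8 and 67.4 in controls, with a log2 change of 0.31 ± 0.14 (limma adjusted p = 0.386). There the Gpx4 KO pools lay within 4 units of each other, and the spread was among the controls. The remaining Prdx4 probe sets had log2 changes of -0.0055 and 0.047, the last of them under an intensity of 10 on every array. As an X-linked gene it is read beside the sex-linked genes given above, whose part in the Prdx4 values cannot be told apart from that of genotype.

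**Figure D2:**
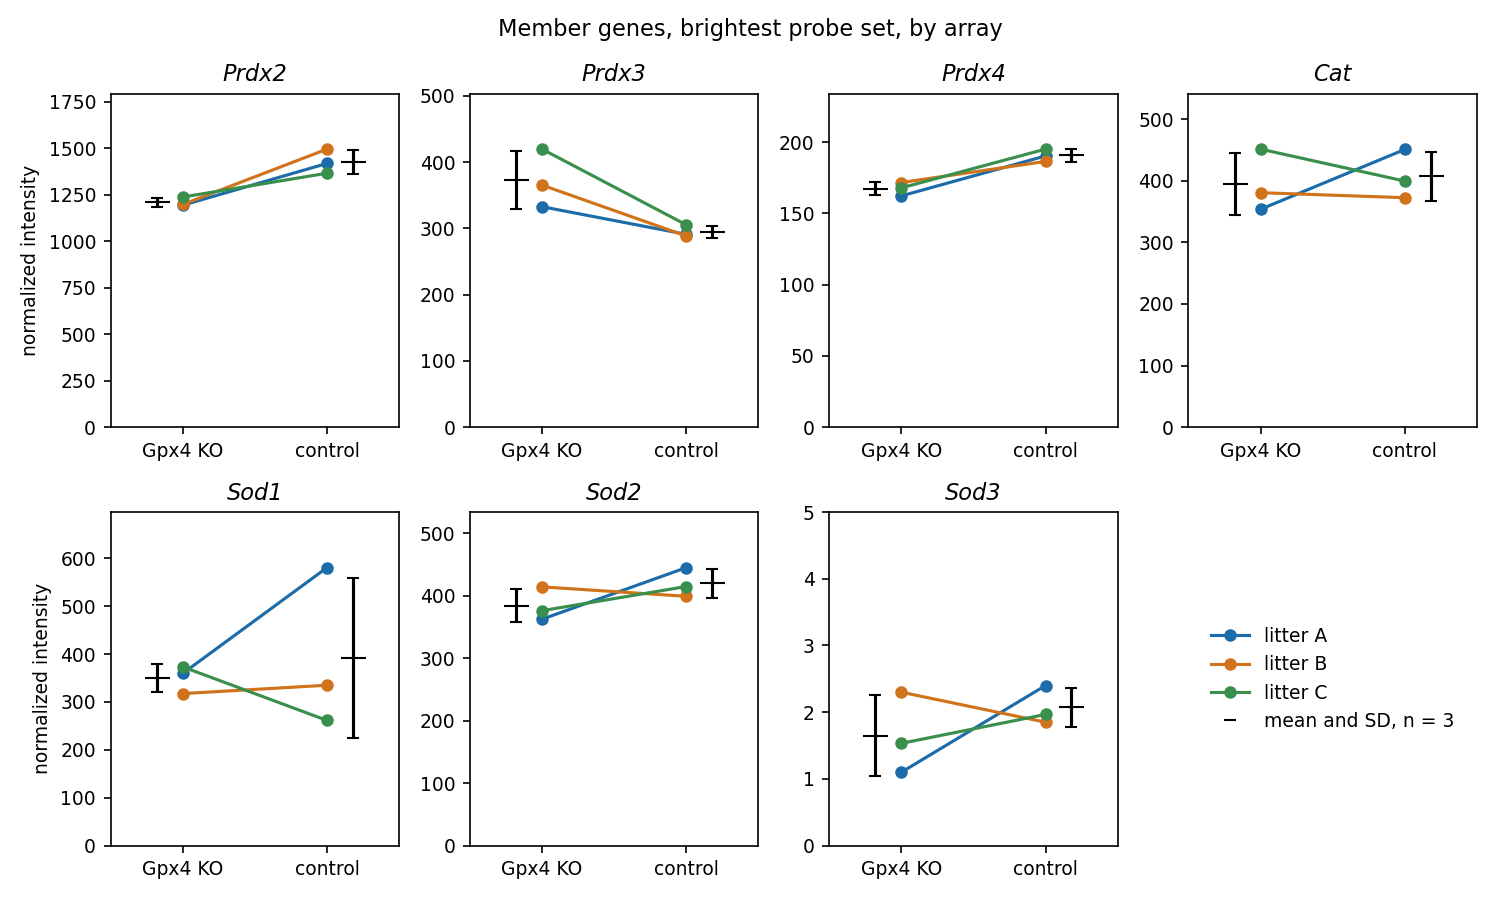
Normalized intensity (vertical axes, from 0, each panel with its own scale) of 7 genes on their brightest probe sets in Gpx4 KO pools (left) and control pools (right); lines join the pools of 1 litter and black bars give the mean and SD of 3 arrays. Prdx2 and Prdx4 are lower and Prdx3 is higher in all Gpx4 KO pools, whereas the groups overlap for Cat, Sod1, Sod2 and Sod3.

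Groups that did not overlap on the brightest probe set were thus found for 3 of the 7 genes, against 20.6% of all genes. Over the probe sets they were 5 of 20, 2 higher and 3 lower in Gpx4 KO, against 18.2% of all probe sets (8.79% higher and 9.43% lower) and 24.8% of those brighter than the median, where all 5 stood. With the intensities as deposited, which were not at a common level, the groups overlapped for Prdx2, Prdx3 and Prdx4 on these brightest probe sets. There Prdx2 had 1046.5, 1276.7 and 1059.9 in Gpx4 KO pools of litters A, B and C, against 1206.8, 1545.5 and 1788.9 in controls. Prdx2 and Prdx4 were still lower in Gpx4 KO within each litter.

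Catalase showed no shared direction. On its brightest probe set Cat had intensities of 354, 381 and 451 in Gpx4 KO pools of litters A, B and C, against 451, 373 and 400 in controls. The level was lower in the Gpx4 KO pool of litter A and higher in those of litters B and C. The mean was 395 ± 50.4 in Gpx4 KO and 408 ± 39.8 in controls, a log2 change of -0.046 ± 0.12 with an interval of -0.33 to 0.24 (limma adjusted p = 0.905). The other Cat probe set had a log2 change of 0.13 ± 0.10 with an interval of -0.12 to 0.38 (limma adjusted p = 0.636), with 282 ± 24.1 in Gpx4 KO and 257 ± 9.32 in controls. The 2 probe sets differed in sign, and both intervals hold 0.

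Sod1, the cytosolic dismutase, had the lowest log2 changes of the family, but on its dimmer probe sets. On the brightest, 1459976_s_at, the intensities were 360, 318 and 373 in Gpx4 KO pools of litters A, B and C, against 580, 335 and 261 in controls. The 3 Gpx4 KO pools lay together and the controls lay on both sides of them, so the log2 change by litter was -0.67 (A), -0.073 (B) and 0.49 (C). Their mean was -0.084 ± 0.20 with an interval of -0.58 to 0.41 (limma adjusted p = 0.898). On the second, 1451124_at, the intensities were 168, 154 and 148 in Gpx4 KO and 392, 214 and 144 in controls. This gave the lowest log2 change of the 20 probe sets, -0.52 ± 0.21, and the 1 interval that reached past 2-fold, -1.03 to -0.0030 (limma adjusted p = 0.339). On the dimmest of these 3, 1435304_at, the intensities were 79.9, 77.5 and 74.7 in Gpx4 KO, against 137, 116 and 94.8 in controls. Here every Gpx4 KO pool lay below every control pool, with a log2 change of -0.49 ± 0.13 and an interval of -0.80 to -0.18 (limma adjusted p = 0.169). Both of these probe sets passed without litter C, with log2 changes of -0.79 and -0.58 (limma adjusted p = 0.0411 and 0.0445, among 2773 probe sets that passed in that fit), and neither passed without litter A (-0.20 and -0.39) or litter B. The last 2 Sod1 probe sets were under an intensity of 17 on every array and had log2 changes of 0.11 and -0.0087.

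**Figure D3:**
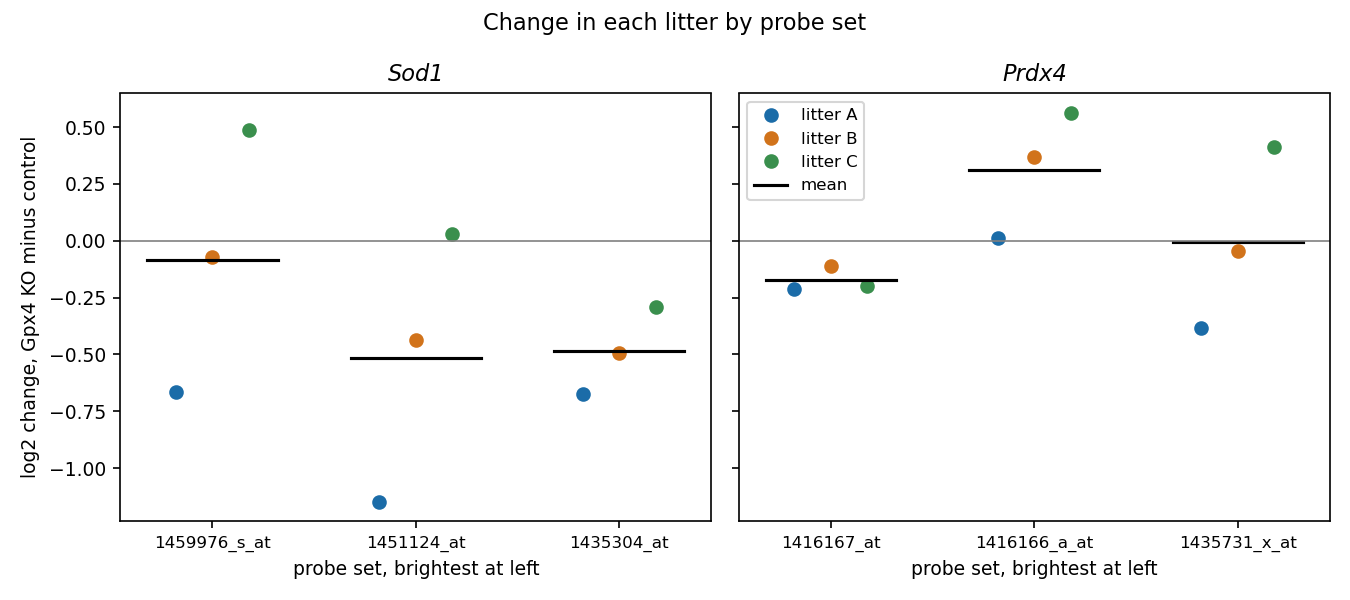
Log2 change (Gpx4 KO minus control, vertical axis) in litters A, B and C, as coloured points, and its mean, as a black line, for the 3 brightest probe sets of Sod1 (left panel) and of Prdx4 (right panel). For each Sod1 probe set litter A is lowest and litter C highest, and for Prdx4 the means are -0.17, 0.31 and -0.0055.

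The order of the litters seen for Sod1, lowest in litter A and highest in litter C, was also counted over the family. Of the 14 member probe sets brighter than the median, 11 had their lowest log2 change in litter A and 12 their highest in litter C, or 78.6% and 85.7%, against 30.9% and 37.1% of all 22518 probe sets brighter than the median. The 14 include the Sod1 probe sets on which the order was first seen. Several of the 14 read the same gene, so they are not independent, and this count was made after the values were seen. As deposited it was 4 and 1 of the 14, or 28.6% and 7.14%, against 10.3% and 8.14% of all. The median log2 change of the 7 genes was -0.25, 0.03 and -0.035 in litters A, B and C, so it was highest in litter B and not in litter C.

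Sod2, the mitochondrial dismutase, is a gene that inflammatory signals induce in many cell types. On its brightest probe set it had intensities of 362, 414 and 376 in Gpx4 KO pools of litters A, B and C, against 445, 399 and 415 in controls. The groups overlapped, with a mean of 384 ± 26.8 in Gpx4 KO and 420 ± 23.3 in controls and a log2 change of -0.12 ± 0.099 (interval -0.36 to 0.12, limma adjusted p = 0.63). The probe set next in brightness had a log2 change of 0.010 ± 0.090 with an interval of -0.21 to 0.23. Another, 1454976_at, was higher in every Gpx4 KO pool, with 75.4, 78.4 and 93.5 in Gpx4 KO against 57, 69 and 62.1 in controls, and did not pass (log2 change 0.32 ± 0.13, limma adjusted p = 0.341). As deposited its log2 change was 0.13. The probe sets of Sod2 thus differed in sign, as those of Prdx4 and Cat did. For Sod1 the probe sets brighter than the median all had negative log2 changes.

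Sod3, the extracellular dismutase, was not measurable in these cells. Its intensities on both probe sets were 1.1 to 2.3 in Gpx4 KO and 1.02 to 2.4 in controls, against a median of 17.4 over the mean levels of all probe sets.

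Genes linked to these enzymes, including oxidant sources and other glutathione peroxidases, were read from lists. In the 6 lists 1 gene passed, against 0.616% of all genes on their brightest probe sets. Counts at an unadjusted p under 0.05 in limma are given with each list, and can be read against the 18.1% of all genes. Of 13 genes that carry out or regulate the recycling and repair of peroxiredoxins, 1 fell and 0 rose (median log2 change 0.0085, with 3 higher and 4 lower at the unadjusted p). The one that fell was Txnip, which encodes an inhibitor of thioredoxin. It had intensities of 176, 145 and 165 in Gpx4 KO pools of litters A, B and C, against 374, 326 and 379 in controls. Its log2 change was -1.08 ± 0.092 (limma adjusted p = 0.0224), and the groups were far apart. It did not pass as deposited (-1.27, limma adjusted p = 0.13), nor without an intensity trend (limma adjusted p = 0.1), nor when litter A or B was left out (limma adjusted p = 0.174 and 0.386). Txnrd1, the cytosolic thioredoxin reductase, had 848, 752 and 663 in Gpx4 KO and 310, 341 and 492 in controls, a log2 change of 0.98 ± 0.18 (limma adjusted p = 0.0893, not past the threshold). The other reductases, Txnrd2 and Txnrd3, were lower in every Gpx4 KO pool without passing (-0.36 ± 0.14 and -0.43 ± 0.11, limma adjusted p = 0.309 and 0.163). Srxn1, the sulfiredoxin that repairs overoxidized peroxiredoxins and a known NRF2 target, had a log2 change of 0.17 ± 0.15 (limma adjusted p = 0.666). Txn1, the cytosolic thioredoxin, had one of 0.18 ± 0.071 (limma adjusted p = 0.311).

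**Figure D4:**
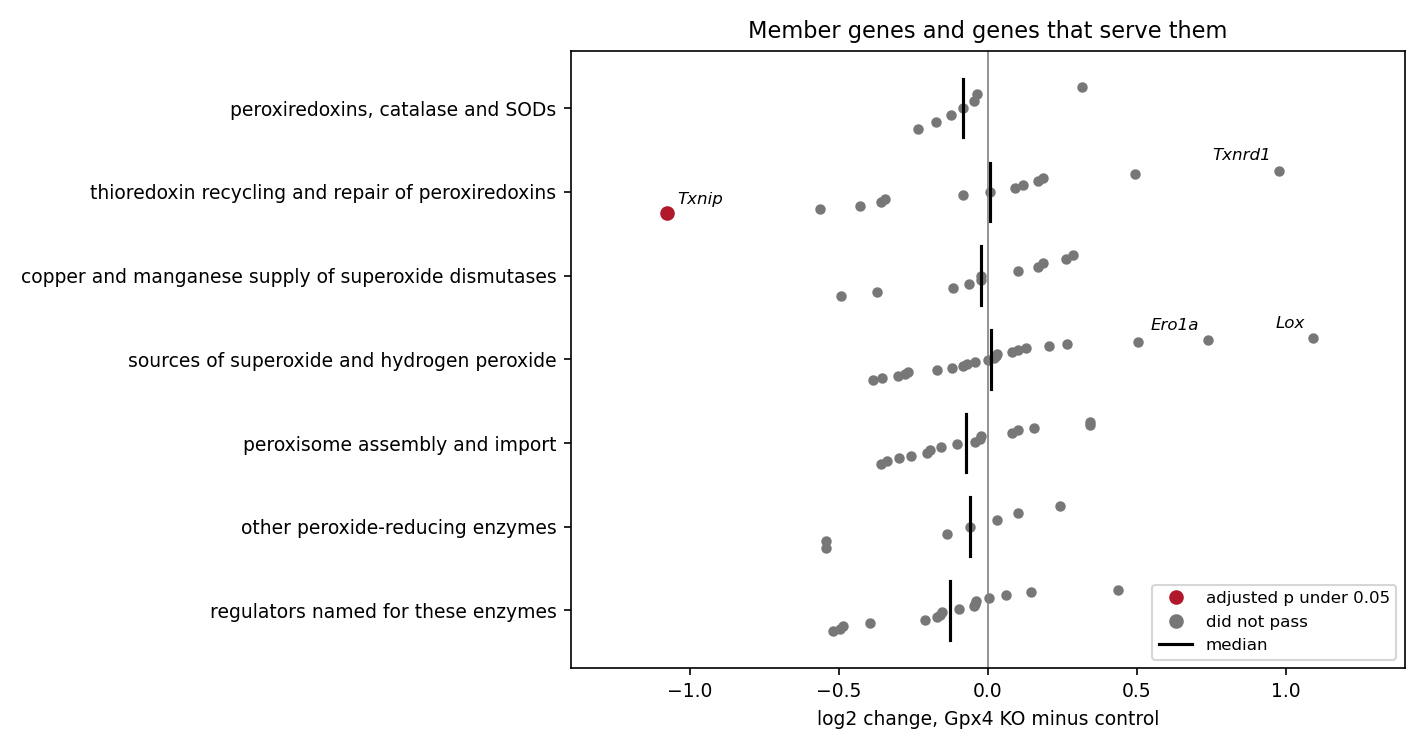
Log2 change (Gpx4 KO minus control, horizontal axis) of each measured gene on its brightest probe set, in the family (top row) and in 6 lists of genes linked to it. Vertical bars are medians and genes beyond 0.6 in either direction are named. Txnip, at -1.08, is the gene that passed, and the family spans -0.23 to 0.32.

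Of 11 genes that carry or transport copper or manganese, not all of them for the dismutases, 0 passed in limma (median log2 change -0.022, with 1 higher and 2 lower at the unadjusted p). Atox1, a copper chaperone, had intensities of 1182, 1169 and 998 in Gpx4 KO pools of litters A, B and C, against 1681, 1674 and 1381 in controls. The groups did not overlap, and the log2 change of -0.49 ± 0.071 came close to the threshold (limma adjusted p = 0.0582). It was alike in the litters, at -0.50, -0.51 and -0.46. With the mean of the Atox1 probe sets the log2 change was smaller, at -0.33 (limma adjusted p = 0.138). Ccs, the chaperone that loads copper into Sod1, had a log2 change of -0.12 ± 0.10 (limma adjusted p = 0.665), and the metal importer Slc39a8 one of -0.37 ± 0.13 (limma adjusted p = 0.267).

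Of 22 measured genes that produce superoxide or hydrogen peroxide, 0 passed in limma (median log2 change 0.011, with 3 higher and 2 lower at the unadjusted p). Ero1a, the oxidase of the endoplasmic reticulum whose hydrogen peroxide Prdx4 can use, had 513, 477 and 407 in Gpx4 KO and 258, 239 and 324 in controls, a log2 change of 0.74 ± 0.15 (limma adjusted p = 0.0989). Lox, the secreted lysyl oxidase of collagen, had 42.4, 27.2 and 40.9 in Gpx4 KO and 5.03, 1.63 and 23.9 in controls, a log2 change of 1.09 ± 0.23 (limma adjusted p = 0.109). Lox was dim in the controls of litters A and B, so the size depends on the added 16. It was 2.34 with 1 added and 0.45 with 64 added. Of the fibroblast markers, Vim and Pdgfra were higher in every Gpx4 KO pool and Fbln1 lower, as given above. Of 16 measured peroxisome genes 0 passed in limma (median log2 change -0.073, with 1 higher and 3 lower at the unadjusted p). The lowest unadjusted p were those of Pex13 (-0.34 ± 0.10, limma adjusted p = 0.202) and Pex26 (-0.36 ± 0.13, limma adjusted p = 0.271), both parts of the machinery that imports matrix enzymes such as catalase. Of the 7 other glutathione peroxidases measured 0 passed in limma (median log2 change -0.062, with 0 higher and 1 lower at the unadjusted p), with log2 changes of -0.54 ± 0.18 for Gpx2 and -0.55 ± 0.25 for Gpx3 (limma adjusted p = 0.246 and 0.384). Both were dim, with means of 23.5 and 4.83 in Gpx4 KO and 40.4 and 16.5 in controls.

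Of 16 measured regulators of these enzymes 0 passed in limma (median log2 change -0.13, with 1 higher and 2 lower at the unadjusted p). Nfe2l2, which encodes NRF2, had a log2 change of 0.062 ± 0.088 and its inhibitor Keap1 one of -0.046 ± 0.10 (limma adjusted p = 0.805 and 0.889). Hif1a, the hypoxia-regulated factor, had intensities of 1031, 1121 and 1080 in Gpx4 KO and 1544, 1684 and 1366 in controls, with a log2 change of -0.50 ± 0.084 (limma adjusted p = 0.0772). Foxo3, a forkhead factor that can induce Sod2 and Cat, had a log2 change of 0.44 ± 0.13 (limma adjusted p = 0.194), and its groups overlapped. The other forkhead factors listed, Foxo1 and Foxo4, had log2 changes of -0.17 ± 0.12 and -0.49 ± 0.15 (limma adjusted p = 0.588 and 0.221).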

How the data were processed

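Per the labels, a Trizol extraction gave the total RNA, and the biotin-labelled target was made by in vitro transcription for 1-colour arrays. The deposited values are linear intensities, 1 per probe set and array. The background correction, probe summary and scaling used by the authors are not given in the sources used here. The arrays were not at a common level, so intensities were quantile-normalized here after leaving out 64 control probe sets.

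The 45037 probe sets were fitted on the log2 scale with 16 added (limma 3.58.1, R 4.3.3). The functions were lmFit and eBayes, with the variance allowed to follow intensity and a term for litter, two-sided p-values and Benjamini-Hochberg adjustment at 0.05. The series' design pairs Gpx4 KO and control pools by litter, and the labels name the litter. The correlation between the deviations of same-litter arrays was 0.175 for litter A, 0.0474 for litter B and 0.207 for litter C.

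Gene names came from the platform annotation of the array, which gave 34945 probe sets 1 gene, 932 several and 9160 none. A gene was read on the probe set with the highest mean over all arrays. Chromosomes and promoter windows came from RefSeq on GRCm38.p6, and of genes with several windows the first by coordinate entered the shares over all windows. Named genes were all measured members, Gpx4, and of each list the genes that passed and those with the 2 smallest unadjusted p; for Prdx3, the member with the largest absolute log2 change, also the 3 genes nearest to it. Txn1, Srxn1, Ccs, Nfe2l2 and Keap1 were named after their values were seen, for their known roles. So were Txnrd2, Txnrd3, Foxo1 and Foxo4, as relatives of a named gene. The members and lists were chosen with earlier results of these data known. The alternatives tried were other scalings, pseudocounts of 1 and 64, no litter block, no intensity trend, leaving out the dimmest 40% of probe sets or a litter, and averaging the probe sets of a gene.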

Additional observations from a re-analysis of the deposited data

How the results depend on the processing

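Under the 11 alternatives none of the 7 genes passed in limma on its brightest probe set or on the mean of its probe sets (Sod3 was not tested without the 40% dimmest probe sets), while Sod1 1451124_at and 1435304_at passed without litter C, and the directions of Prdx2 and Prdx3 were kept in all of them, with log2 changes of -0.41 to -0.19 and 0.12 to 0.38. Prdx4, Cat, Sod1 and Sod2 changed sign in at least 1 alternative, and the values for Sod3 carry no direction, since it was not measurable. With the mean of a gene's probe sets Prdx4 was 0.045, Cat 0.040, Sod2 0.11 and Sod3 0.00096. With a litter left out, the ranges were -0.15 to 0.10 for Cat, -0.37 to 0.21 for Sod1, -0.070 to 0.00035 for Sod3, -0.22 to 0.18 for Prdx4 1435731_x_at and -0.021 to 0.071 for Sod2 1417193_at. With a pseudocount of 1 Prdx4 1435731_x_at was 0.0019. With all arrays brought to 1 median Sod3 was 0.024, Cat 1416430_at -0.015 and Sod2 1417193_at -0.12, and as deposited the last 2 were -0.074 and -0.18. As deposited the median log2 change of the 7 genes was -0.27, where the median of all genes was -0.087. The family median was 0.040 with the mean of a gene's probe sets and 0.00035 without litter A, and negative in the remaining alternatives. The cause of these changes was not tested.

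The count over the whole array was 35 as deposited (8.57% of the calls higher in Gpx4 KO, against 37.6% with quantile normalization), 710 with all arrays brought to 1 median (27.9% higher), 601 and 59 with pseudocounts of 1 and 64, 1130 without the 40% dimmest probe sets, where fewer were tested, and 6 without an intensity trend. With a litter left out it ran from 0 (without litter B, 3700 at an unadjusted p under 0.05 in limma) to 2773 (without litter C), and it was 3 without litter A. The fit with no replicate block, in place of the paired one, called 135, and it moved no member past the threshold. Gpx4 kept its direction, and did not pass as deposited (-1.34), with the mean of its probe sets (-1.28), without an intensity trend (-1.15) or with litter A or B left out. Its range with a litter left out was -1.21 to -1.10. Of the 12 genes of the lists that were run under the alternatives, some that did not pass as reported did in at least 1. These were Txnrd1, Atox1, Ero1a, Lox and Hif1a, each both without litter C and without the 40% dimmest probe sets. Txnrd1 and Atox1 also passed with a pseudocount of 1, and Lox with all arrays brought to 1 median. Signal over background limits Sod3 and the dimmest probe sets of Prdx4, Sod1 and Sod2, for which a log2 change is held near 0 by the added 16.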
